A study of Mus musculus with 18 samples.

Results

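The genes described here belong to the radical-trapping defences that act without GPX4, the peroxidase that most cells rely on against ferroptosis. They are Aifm2, Dhodh, Gch1, Pdss1, Pdss2, Coq2, Coq7, Coq9 and Vkorc1l1, and they were chosen by symbol, 9 of the 55487 genes in the count table. The 9 genes were followed through 18 RNA-seq libraries of MEFs (mouse embryonic fibroblasts, a wild-type line obtained from a cell bank), in 6 groups of 3 libraries. MEFs were kept in Scm, complete medium with the serum that leaves cells sensitive to ferroptosis, or in Rcm, complete medium with the serum that makes them resistant. For the exchanges, cells grown in Scm were given Rcm and collected 12 h later (S-Rcm 12 h) or 24 h later (S-Rcm 24 h). Cells grown in Rcm were given Scm for the same times, called R-Scm 12 h for the shorter and R-Scm 24 h for the longer. No genetic change, drug or ferroptosis inducer was given to these libraries per the labels, and no group received fresh medium of its own kind, so that fresh medium and the kind of serum cannot be told apart in an exchange. The labels do not say whether the 3 libraries of a group came from separate cultures. The study's methods describe the replicates of its cell culture experiments in general as independent, and the p-values measure the spread between these libraries.

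Ferroptosis is a form of cell death driven by peroxidation of membrane phospholipids. GPX4 reduces the lipid peroxides with glutathione, whereas the genes studied here supply or recycle small antioxidants that stop the radical chain. FSP1, the product of Aifm2, reduces ubiquinone to ubiquinol at the plasma membrane and can reduce vitamin K. PDSS1 and PDSS2 make the isoprenoid tail of coenzyme Q, COQ2 joins the tail to the ring, COQ7 hydroxylates the ring, and COQ9 is a lipid-binding partner of COQ7. DHODH passes electrons to ubiquinone in the inner mitochondrial membrane while it makes pyrimidines. GCH1 carries out the first and rate-limiting step of tetrahydrobiopterin synthesis, and VKORC1L1 reduces vitamin K.

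Total counts per library ran from 14534906 to 20313715. All 9 genes passed the filter on low counts that left 15381 genes to test, with 118 to 1516 counts per library. The fibroblast markers were present (9 of 10 tested, summed level 8400 to 13000 CPM, the counts of a gene relative to the total of its library), with Fap the marker that did not pass. The summed levels stayed at or below 5.84 CPM for the epithelial, endothelial, blood cell, muscle and fat cell lists, and Myod1, Adgre1, Cd3e and Adipoq had no count in any library. In bulk RNA, fewer cells of a type and less RNA per cell cannot be told apart.

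A gene was called changed when its log2 fold change (log2FC) was beyond 0.58 in either direction and its Benjamini-Hochberg adjusted p over all 15381 genes, from the quasi-likelihood test of edgeR, was under 0.05. Levels are CPM scaled with TMM factors, given as mean ± SD (n = 3).

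Divided by the exon length of each gene, the highest level was that of Coq2, at 22.6 CPM per kb over the 18 libraries. Coq9 followed at 13.8 and Vkorc1l1 at 11.0 CPM per kb. The middle of the order was held by Pdss1 at 6.09 CPM per kb, Aifm2 at 4.93 CPM per kb and Dhodh at 3.37 CPM per kb. Coq7 had 2.63 CPM per kb, and the lowest levels were those of Gch1 and Pdss2, both at 1.84 CPM per kb. Gch1 and Pdss2 could not be ordered, since their group means ran from 1.54 to 2.02 and from 1.6 to 2.21 CPM per kb. The ranges of group means of other neighbours in the order overlapped too. They were 13.1 to 15.3 for Coq9 and 7.66 to 13.8 for Vkorc1l1, and 5.23 to 7.59 for Pdss1 and 3.98 to 5.74 for Aifm2. Dhodh ran from 3.01 to 3.67 and Coq7 from 2.3 to 3.34 CPM per kb.

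**Figure D1:**
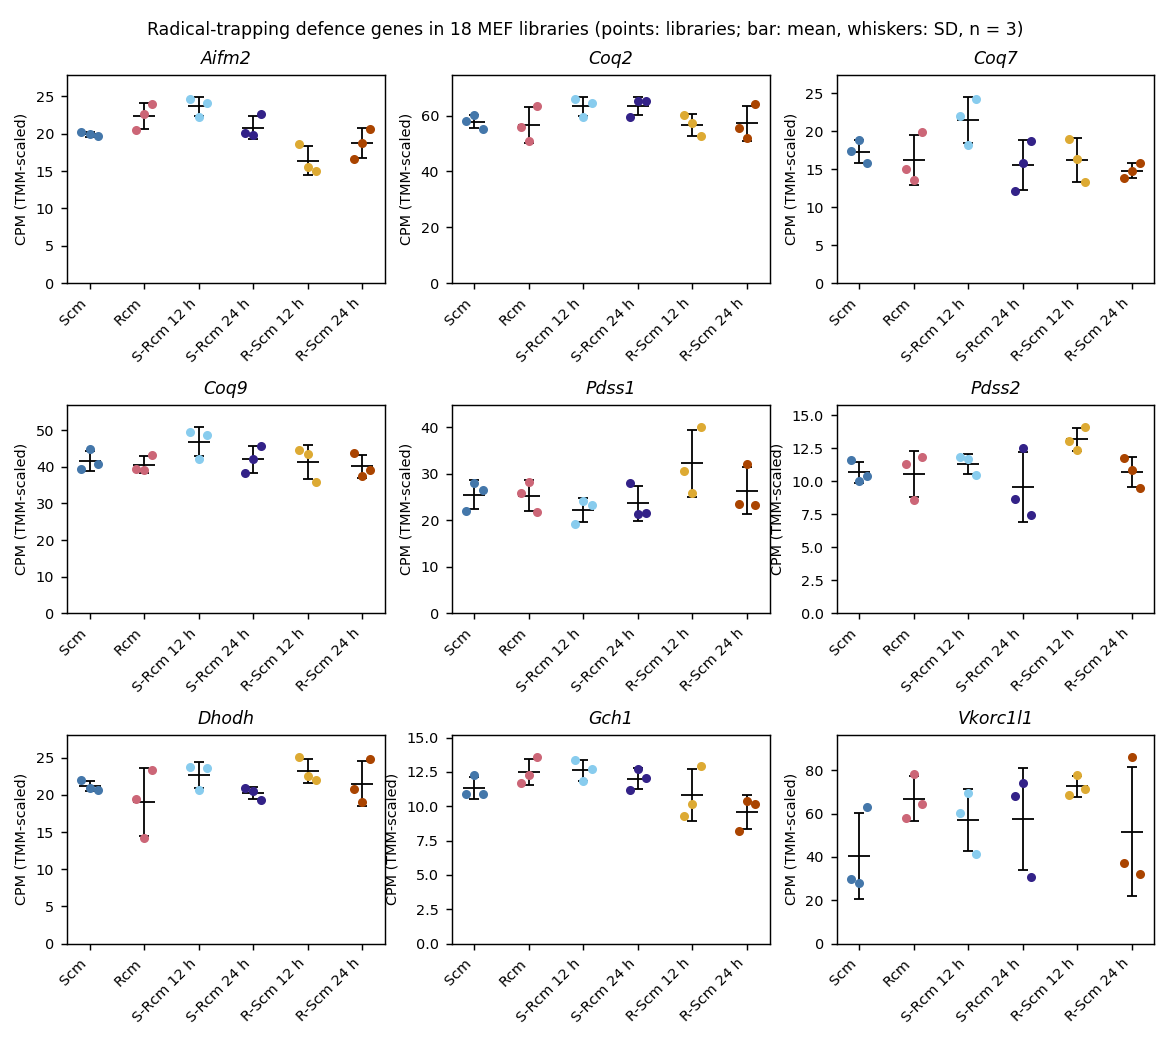
CPM (y axis, from 0) of the 9 genes in each of the 6 groups (x axis), with a point per library, a bar at the mean and whiskers of 1 SD (n = 3). Aifm2 is lowest in R-Scm 12 h, and Vkorc1l1 spreads from 28.0 to 86.0 CPM, with libraries of the same group far apart.

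None of the 9 genes was called changed between Rcm and Scm, or after either exchange. The share of all genes called was 2.3% for Rcm against Scm, 2.74% for R-Scm 12 h against Rcm, 0.377% for R-Scm 24 h against Rcm, 0.858% for S-Rcm 12 h against Scm and 0.338% for S-Rcm 24 h against Scm. A count of 0 of 9 lies near these shares. With an unadjusted p under 0.05, the counts were 0, 1, 2, 1 and 0 of 9, against 16.2%, 17.6%, 10.3%, 14.3% and 8.11% of all genes. The 2 groups were fully separated, with no overlap of library values, for 1, 2, 1, 1 and 0 of the 9 genes, against 23.9%, 23.4%, 11.2%, 26.4% and 19.5% of all genes. By the adjusted p alone, Aifm2 passed in R-Scm 12 h against Rcm, where 4.19% of all genes did. No other of the 9 genes passed by the adjusted p alone, where the shares of all genes were 2.87% for Rcm against Scm, 0.475% for R-Scm 24 h, 1.25% for S-Rcm 12 h and 0.403% for S-Rcm 24 h.

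The 95% intervals of the 45 log2FC give the range of changes compatible with these libraries. Of the 45 intervals, 34 lay wholly within the fold threshold, and 4 excluded 0. Those within the threshold were 4 of 9 in R-Scm 12 h against Rcm, and 7 or 8 of 9 in each other comparison. The standard error ran from 0.0991 for the best measured gene to 0.407 for Vkorc1l1. No called gene among the 9 was found either when R-Scm 12 h and 24 h were compared with Scm (4.4% and 0.592% of all genes called), S-Rcm 12 h and 24 h with Rcm (0.871% and 0.221%), or the time points with each other (0.774% for R-Scm and 0.156% for S-Rcm). With DESeq2 fitted to R-Scm 12 h and Scm alone, Vkorc1l1 was called (log2FC 0.85, adjusted p = 0.0133), against an adjusted p of 0.209 in edgeR over 18 libraries.

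**Figure D2:**
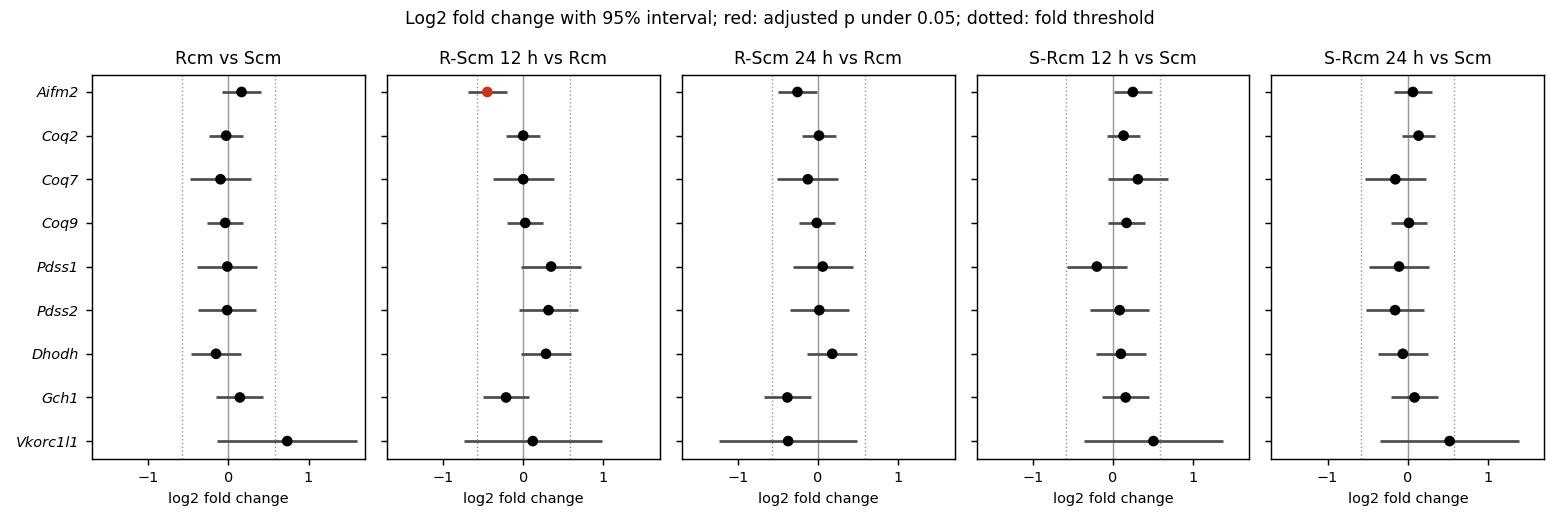
Log2FC (x axis) of the 9 genes for Rcm against Scm and for the 4 exchanges against the starting medium, with 95% intervals, dotted lines at the fold threshold of 0.58 and red where the adjusted p is under 0.05. The single red point is Aifm2 in R-Scm 12 h against Rcm, and the widest intervals are those of Vkorc1l1.

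Aifm2 was the gene among the 9 whose difference between the 2 exchanges passed the test at 12 h. It lies on GRCm38 chr10:61715263-61739260, on the plus strand. The libraries of Rcm had 20.5, 22.6 and 23.9 CPM, and those of R-Scm 12 h had 18.7, 15.6 and 15.0 CPM. All R-Scm 12 h libraries were below all Rcm libraries. The means were 22.4 ± 1.72 and 16.4 ± 1.98 CPM, a log2FC of -0.45 (SE 0.114, 95% interval -0.69 to -0.21, adjusted p = 0.0335), which did not reach the fold threshold. Over the 19 settings tried, changed thresholds on the same fit included, the log2FC stayed between -0.55 and -0.31. The adjusted p ran from 0.00745 to 0.168. The value of -0.31 came from the counts of Aifm2 summed with those of Macroh2a2, an overlapping gene described below. For Aifm2 alone the log2FC stayed between -0.55 and -0.38. In S-Rcm 12 h the libraries had 24.6, 22.2 and 24.1 CPM, all above those of Scm at 20.3, 19.9 and 19.7 CPM, a log2FC of 0.25 (SE 0.113, adjusted p = 0.33), which did not pass.

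The difference between the exchanges was tested as an interaction, the change from Scm to S-Rcm 12 h less the change from Rcm to R-Scm 12 h. It was 0.69 on the log2 scale for Aifm2 (SE 0.16, 95% interval 0.35 to 1.03, adjusted p = 0.0301), and Aifm2 was the 1 gene of the 9 called, against 2.03% of all genes, or 2.22% by the adjusted p alone. Leaving out 1 library at a time ended this call in 9 of 12 cases, with adjusted p from 0.0688 to 0.0831 and values from 0.63 to 0.70. The call was kept without S-Rcm 12 h replicate 2, Rcm replicate 1 or R-Scm 12 h replicate 1, where the adjusted p was 0.045, 0.0372 and 0.0179, and lost without any of the other libraries. The interval of Pdss1 also excluded 0 at 12 h, on the other side, at -0.55 (SE 0.25, 95% interval -1.08 to -0.019), with an adjusted p of 0.32 that did not pass. For Aifm2 at 24 h the libraries of R-Scm had 16.7, 18.7 and 20.7 CPM, which overlap those of Rcm. The log2FC was -0.26 (95% interval -0.50 to -0.018, adjusted p = 0.432). Those of S-Rcm had 20.1, 19.8 and 22.6 CPM, which overlap those of Scm (log2FC 0.06, adjusted p = 0.96). The interaction at 24 h was 0.32 (SE 0.16, adjusted p = 0.434). None of the 9 genes was called there, against 1.37% of all genes.

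Aifm2 shares its 3' end with Macroh2a2, a gene of the histone variant macroH2A2 that is transcribed from the other strand. The 2 genes overlap by 596 bases at chr10:61738665-61739260, of which 233 are exonic in both, and the sources used here do not state whether counting used strand. Macroh2a2 was at 75.8, 70.2 and 69.5 CPM in R-Scm 12 h against 78.8, 83.5 and 98.2 in Rcm, a log2FC of -0.27 (SE 0.0924, adjusted p = 0.109). Its interaction at 12 h was 0.43 (SE 0.131, adjusted p = 0.114). With the counts of both genes summed, the interaction was 0.48 (adjusted p = 0.0572) and was no longer called, where the adjusted p over all 25 settings ran from 0.00291 to 0.0831. Most of the sum is Macroh2a2 (mean 81.8 CPM, against 20.3 CPM for Aifm2). The lost call therefore cannot show how many reads of Aifm2 are shared. The part of Macroh2a2 in the values of Aifm2 was not tested.

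The level of Aifm2 also moved with a library measure within groups. The difference of median log2 CPM between the shortest genes (up to 2628 bases of exon) and the longest (from 5271 bases) ran from -2.71 to -2.46 over the libraries, and its group means lay between -2.60 and -2.56. Over the 18 libraries, after group means were removed, its correlation with Aifm2 was 0.763, and 10.3% of genes had a larger one. Coq7 had 0.839, Coq2 0.655 and Coq9 0.652, with 4.07%, 21.1% and 21.3% of genes larger in size. Dhodh, Gch1, Pdss1, Pdss2 and Vkorc1l1 ran from -0.35 to 0.386, with 51.4% to 75.2% of genes larger. These are given as a description of libraries that share depth and preparation. With this measure as a covariate, a fit chosen after seeing the data, the interaction of Aifm2 was 0.69 (adjusted p = 0.00587).

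The promoter of Aifm2 is shown with that of Nqo1, a quinone reductase whose response also differed between the exchanges, to set the 2 sequences beside these values. RefSeq gives the 250 bases before the start of Aifm2 at chr10:61720399-61720648 (GRCm38.p6, plus strand), a start inside the longer GENCODE gene. For Nqo1 they are chr8:107403206-107403455 on the minus strand. The sequences are printed in lower case, as no searched motif was found in either.
Aifm2: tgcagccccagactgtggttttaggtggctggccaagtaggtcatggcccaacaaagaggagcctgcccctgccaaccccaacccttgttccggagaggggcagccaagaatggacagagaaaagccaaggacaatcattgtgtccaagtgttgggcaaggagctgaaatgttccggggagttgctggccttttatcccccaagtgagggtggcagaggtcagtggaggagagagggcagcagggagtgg
Nqo1: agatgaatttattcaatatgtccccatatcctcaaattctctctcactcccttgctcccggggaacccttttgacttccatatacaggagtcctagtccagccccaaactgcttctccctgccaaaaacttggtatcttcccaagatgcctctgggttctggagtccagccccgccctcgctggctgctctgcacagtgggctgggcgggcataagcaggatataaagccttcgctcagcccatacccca

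The windows searched, 300 bases from 250 before to 50 after the RefSeq start, were taken for 8 of the 9 genes and for the partners Nqo1 and Stard7. The motifs were the NRF2 element TGACNNNGC, the sterol regulatory element TCACNCCAC, the NRF1 element GCGCANGCG and the cyclic AMP element TGACGTCA, on both strands. Their shares over 32851 promoters were 12.4%, 1.24%, 6.25% and 1.79%. Among the genes described here the matches were an NRF2 element in Coq9, an NRF1 element in Vkorc1l1 and, of the partners, an NRF2 element in Stard7. A match is a description of letters, and its absence says only that they are not in this window.

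**Figure D3:**
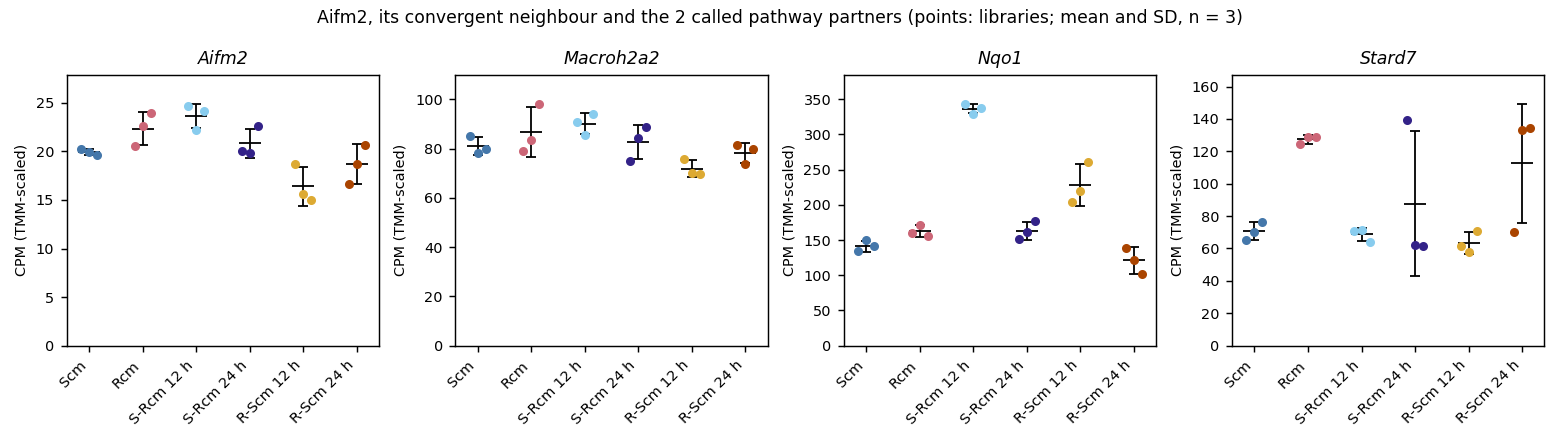
CPM by library (y axis, from 0) of Aifm2, Macroh2a2, Nqo1 and Stard7 in the 6 groups (x axis), with mean and SD (n = 3). Nqo1 stands highest in S-Rcm 12 h at 330 to 344 CPM, and Stard7 has 1 of 3 libraries apart from the others in each of the 24 h groups.

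No gene of coenzyme Q synthesis was called in any comparison of 2 groups. Relative to its level Coq2 varied least of the 9 genes, from 50.8 to 66.0 CPM over all libraries. Its log2FC was -0.03 for Rcm against Scm (95% interval -0.24 to 0.18) and -4.57e-05 for R-Scm 12 h against Rcm (interval -0.21 to 0.21). Coq9 ran from 35.9 to 49.5 CPM, with a log2FC of 0.17 in S-Rcm 12 h (interval -0.06 to 0.40). Coq7 was at 22.0, 18.2 and 24.2 CPM in S-Rcm 12 h against 17.4, 18.8 and 15.8 CPM in Scm, and the groups overlapped (log2FC 0.31, interval -0.07 to 0.68, adjusted p = 0.46).

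The pair of genes for the enzyme that builds the isoprenoid tail had its highest group means in R-Scm 12 h. Pdss1 had 30.7, 26.0 and 40.0 CPM there and 25.9, 28.3 and 21.8 CPM in Rcm, which overlap, and the log2FC was 0.35 (SE 0.176, adjusted p = 0.326). Pdss2 had 13.1, 12.3 and 14.1 CPM in R-Scm 12 h, all above the 11.3, 8.6 and 11.8 CPM of Rcm, and the log2FC was 0.32 (SE 0.171, adjusted p = 0.365). Neither passed.

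The isoprenoid precursors that these enzymes draw on are made by the mevalonate pathway, and 7 of its 8 genes listed here were called in R-Scm 12 h. Of 8 genes of isoprenoid supply, 4 were called higher in Rcm than in Scm (median log2FC 0.73) and 7 lower in R-Scm 12 h than in Rcm (median -1.53). After 24 h in Scm 3 were called lower (median -0.80). In S-Rcm 12 h 0 were called, and after 24 h in Rcm 1 was called higher (median 0.55). In the same order, the shares of all genes called were 2.3%, 2.74%, 0.377%, 0.858% and 0.338%. The medians of all genes tested lay between -0.01 and 0.02. Fdps, which makes farnesyl diphosphate, fell by 1.91 on the log2 scale in R-Scm 12 h (SE 0.155, adjusted p = 5.08e-06). Mvd and Idi1, which make and isomerise isopentenyl diphosphate, fell by 1.85 (SE 0.215, adjusted p = 0.000127) and 1.67 (SE 0.176, adjusted p = 4.66e-05). In the same comparison the 5 genes Pdss1, Pdss2, Coq2, Coq7 and Coq9 had log2FC from -4.57e-05 to 0.35.

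Dhodh had 14.2 CPM in 1 library of Rcm, with 19.5 and 23.4 CPM in the others, and 20.7 to 22.0 CPM in Scm. Its log2FC was -0.15 for Rcm against Scm (SE 0.147, adjusted p = 0.626), and without Rcm replicate 2, the library at 14.2 CPM, it was close to 0 at 0.0163. In R-Scm 12 h its libraries had 25.1, 22.5 and 22.0 CPM, which overlap those of Rcm (log2FC 0.28, adjusted p = 0.334).

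Gch1 was lowest in R-Scm 24 h, with 8.19, 10.4 and 10.2 CPM, all below the 11.7, 12.2 and 13.6 CPM of Rcm. The log2FC was -0.38 (SE 0.139, interval -0.68 to -0.09), with an adjusted p of 0.301, so that Gch1 did not pass.

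Vkorc1l1 had the widest spread, within groups as well as between them. Scm held 29.7, 28.0 and 63.1 CPM, and Rcm held 58.1, 78.4 and 64.3 CPM. Of the Scm libraries 2 were far below all of Rcm and 1 lay among them. The means were 40.3 ± 19.8 and 66.9 ± 10.4 CPM, a log2FC of 0.73 (SE 0.407, interval -0.14 to 1.61, adjusted p = 0.388), and without Scm replicate 3 it was 1.21 (adjusted p = 0.222). Over the 19 settings tried the adjusted p ran from 0.111 to 0.712. S-Rcm 24 h held 68.2, 74.0 and 30.6 CPM, and R-Scm 24 h held 37.3, 86.0 and 32.0 CPM, with libraries of each far apart. S-Rcm 12 h held 60.3, 69.4 and 41.4 CPM. R-Scm 12 h was even, at 68.7, 78.0 and 71.4 CPM.

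The within-group SD of log2 CPM was 0.534 for Vkorc1l1, higher than for 98.2% of the genes at a similar level, against a median of 0.218 over all genes tested. Aifm2 had 0.117, and the other 7 genes had 0.112 to 0.23. The genes most like Vkorc1l1 over the 18 libraries were Rps13 (Pearson r 0.795), Gm3678 (0.779) and Zfp781 (0.776), as a description of libraries that share depth.

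**Figure D4:**
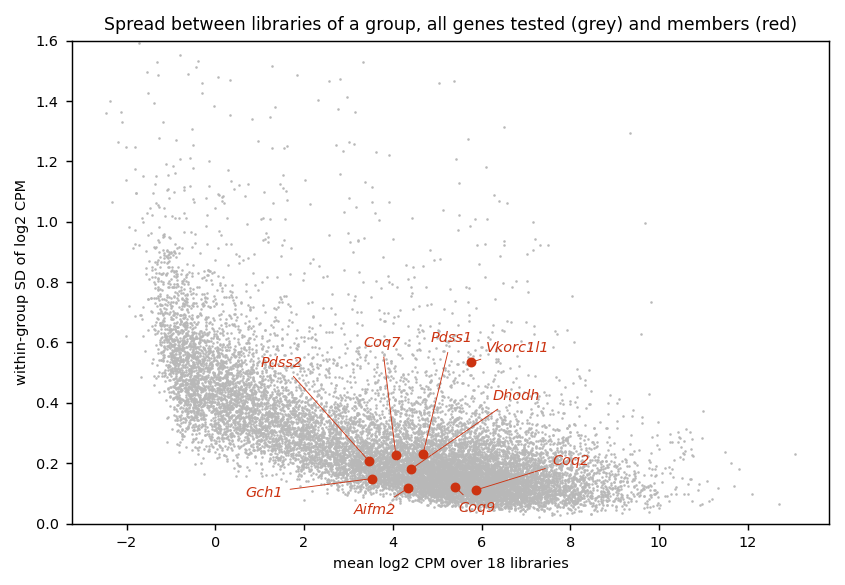
Within-group SD of log2 CPM (y axis) against mean log2 CPM (x axis) for all genes tested (grey points, 59 genes above 1.6 not drawn) and the 9 genes (red). Vkorc1l1 at 0.534 stands above the other 8, which lie between 0.112 and 0.23.

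Vkorc1l1 has a processed copy, Gm5417, at chr15:83405626-83406063 on the minus strand, whose 438 bases match its coding sequence of 531 bases with 1 mismatch, T468C (Vkorc1l1 base, position counted from 1 at the start codon, copy base). The sequences around the mismatch, in capitals, show the single base that separates them within the shared stretch.
Vkorc1l1: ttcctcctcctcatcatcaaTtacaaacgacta
Gm5417: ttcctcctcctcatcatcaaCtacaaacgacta
The treatment of reads with several alignments is not given in the sources used here. Gm5417 had 58 to 118 counts per library, 3.56 to 6.17 CPM, and the ratio of Vkorc1l1 to Gm5417 counts ran from 5.31 to 20.1. With both counts summed, also chosen after seeing the data, the log2FC of Rcm against Scm was 0.70 (adjusted p = 0.358).

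**Figure D5:**
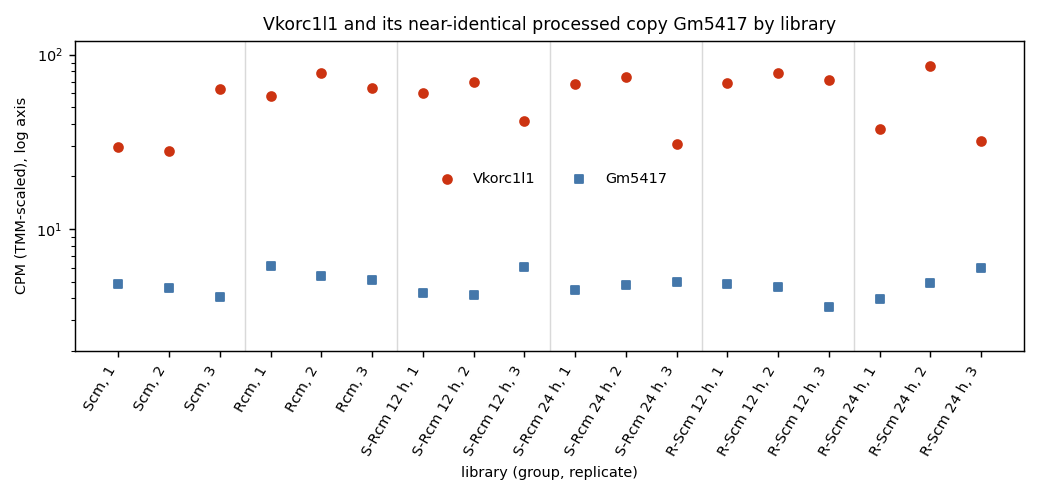
CPM on a log axis (y) of Vkorc1l1 (circles) and Gm5417 (squares) in each of the 18 libraries (x axis), with thin lines between groups. Vkorc1l1 runs from 28.0 to 86.0 CPM while Gm5417 stays between 3.56 and 6.17 CPM.

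Other genes of the same pathways were counted from lists of 30 partners, of which 27 were tested. Of the 27, 0 were called in Rcm against Scm, 1 lower in R-Scm 12 h, 0 in R-Scm 24 h, 1 higher in S-Rcm 12 h and 0 after 24 h in Rcm. The shares of all genes called were, in that order, 2.3%, 2.74%, 0.377%, 0.858% and 0.338%. The called gene of S-Rcm 12 h was Nqo1, which reduces quinones. Its libraries had 344, 330 and 337 CPM against 134, 150 and 141 CPM in Scm, a log2FC of 1.25 (SE 0.111, adjusted p = 1.91e-05). In R-Scm 12 h Nqo1 was at 204, 219 and 261 CPM against 160, 172 and 156 CPM in Rcm, a log2FC of 0.49 (SE 0.11, adjusted p = 0.0165), below the fold threshold. Its interaction at 12 h was 0.76 (SE 0.155, adjusted p = 0.0148), with a positive value after both exchanges and the larger one after the move to Rcm.

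The gene called in R-Scm 12 h was Stard7, a lipid transfer protein that carries phosphatidylcholine and coenzyme Q. It had 124, 129 and 129 CPM in Rcm and 61.3, 57.8 and 71.1 CPM in R-Scm 12 h, a log2FC of -1.01 (SE 0.271, adjusted p = 0.0483), and the call was lost whichever 1 of the 6 libraries was left out (adjusted p from 0.105 to 0.131). In Scm Stard7 was at 65.5, 70.3 and 76.2 CPM (log2FC 0.85 for Rcm against Scm, adjusted p = 0.122). Fitted to those 2 groups alone, edgeR called Stard7 higher in Rcm (adjusted p = 0.00134). The libraries of S-Rcm 24 h had 140, 61.9 and 61.6 CPM, and those of R-Scm 24 h had 70.2, 133 and 135 CPM.

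In the other partner lists the largest log2FC of Rcm against Scm did not pass. It was -0.28 for Coq4, of the coenzyme Q complex (adjusted p = 0.246), 0.75 for Qdpr, which regenerates tetrahydrobiopterin (adjusted p = 0.281, and 0.00719 in edgeR on those 2 groups alone), 0.25 for Vkorc1, the vitamin K reductase related to VKORC1L1 (adjusted p = 0.729), and 0.32 for Sqor, which passes electrons from sulfide to ubiquinone (adjusted p = 0.233). Of the 6 genes of the GPX4 axis none was called in the 5 comparisons, where 0.338% to 2.74% of all genes were. In R-Scm 12 h against Rcm the log2FC was -0.25 for Gpx4 (adjusted p = 0.0909), -1.16 for Slc7a11, the cystine transporter (adjusted p = 0.126), and 0.45 for Gclm, of glutathione synthesis (adjusted p = 0.279).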

How the data were processed

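MEFs were sequenced in 18 libraries of 6 groups. RNA was isolated by the authors on RNeasy columns and read from both ends. They mapped these reads with HISAT2, to the GRCm38 build. The values the authors deposited are raw counts of reads per gene, not normalized, and the counting tool is not given in the sources used here. Groups and replicate numbers were taken from the sample titles.

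Here genes were kept with filterByExpr (15381 of 55487), scaled with TMM factors (0.963 to 1.03), and tested in a quasi-likelihood model with robust dispersion over all 18 libraries. Calls needed a log2 fold change beyond 0.58 in size with an adjusted p under 0.05. Total counts were 14534906 to 20313715, and the counting error at the lowest count of a gene was 3.62% to 9.21%. Intervals cover the spread between libraries. No pair of libraries of a group was a duplicate, since counts differed by at least 9.61 times the sampling noise (chi-square per degree of freedom). Log2 CPM used a prior count of 2.

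Every one of the 9 genes was named, with Macroh2a2 and Gm5417, the partners called in a comparison, the partner of each list with the largest change of Rcm against Scm, and the 3 largest changes of R-Scm 12 h in 2 further lists. The genes and lists were chosen with earlier results of these data known. The partner of Aifm2 and the copy of Vkorc1l1 were found in the GENCODE M21 annotation, with blastn 2.17.0 at 95% identity over at least 100 bases. Other matches included Abi1, which shares 194 exonic bases with Pdss1, and Ciapin1, which shares 38 with Coq9, both from the other strand. Coq2 matched Gm6728 over 1006 bases at 96.5% identity. The part of such genes in the values of the 9 genes was not tested. Promoters came from RefSeq. The fit was tested on simulated data for Rcm against Scm. It called 65 of 100 genes changed by 1 on the log2 scale and 90 of 100 changed by 2, with 7 false calls. Alternatives were another scaling, another filter, thresholds, DESeq2, a replicate block, the compared groups alone and each library left out. The quasi-likelihood model was that of edgeR 4.0.16 in R 4.3.3. DESeq2 was 1.42.0, and figures were drawn with matplotlib 3.10.9.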

Additional observations from a re-analysis of the deposited data

Results flagged for a closer look

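The change 12 h after the move to Rcm and the change 12 h after the move to Scm differed for Aifm2 by 0.694 on the log2 scale (SE 0.16, adjusted p = 0.0301, edgeR interaction). In this interaction 2.03% of all genes were called, at the same fold threshold, which neither change of Aifm2 reached alone. All 3 libraries of S-Rcm 12 h were above those of Scm and all 3 libraries of R-Scm 12 h were below those of Rcm. Full separation, in either direction, held for 26.4% and 23.4% of all genes in these 2 comparisons. For Nqo1 the difference was 0.765 (SE 0.155, adjusted p = 0.0148), with all 3 libraries higher after each exchange. For Aifm2 the part of the overlapping gene Macroh2a2 was not tested.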

How the results depend on the processing

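The call of Aifm2 in the 12 h interaction was 1 gene of 9 in the fit described, and 0 at an adjusted p under 0.01, with no filter (0.677, adjusted p = 0.0825) and with a replicate block on the description number (0.728, adjusted p = 0.0778). Leaving out a library gave 0 to 1. It remained with the replicate block on the title number, with DESeq2 and with other scaling. The labels do not say whether the numbers pair the samples. After group means were removed, the correlation of libraries with the same title number ran from -0.196 to 0.346 and was over 0.1 in 3 of 15 pairs. A low correlation cannot show that the samples were unpaired, and description numbers were not checked in this way. The count was 1 for R-Scm 12 h against Rcm by the adjusted p alone (Aifm2) and 1 for R-Scm 12 h against Scm with DESeq2 on the compared groups (Vkorc1l1). Of the partners, Rcm against Scm gave 2 with edgeR on the compared groups (Stard7, Qdpr), 1 with DESeq2 on 18 libraries (Stard7) and 2 with DESeq2 on the compared groups (Stard7, Qdpr), against 0. These settings also called more genes in all, 456, 484 and 562, against 354 in the fit described. R-Scm 12 h against Rcm gave 0 at 0.01, with no filter, with either replicate block and without any 1 library (0 to 0), and 2 by the adjusted p alone (Stard7, Nqo1), against 1 (Stard7). Of all genes, 380 were called here with no filter, and 397 and 270 with the title-number and description-number blocks. The adjusted p alone called 644, against 421 in the fit described.

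Values near 0 changed sign. In R-Scm 12 h Coq2 was 0.00393 with RLE, 0.00118 with upper-quartile factors, 0.00849 with no filter, 0.00318 with at least 10 counts, 0.00425 with the title-number replicate block, 0.0111 on the compared groups, 0.00848 and 0.00645 with DESeq2 on 18 libraries and on the compared groups, and 0.0062 with the length measure, chosen after seeing the data. With the description-number block Coq7 was -0.0583 in R-Scm 12 h and Coq2 -0.037 in R-Scm 24 h. Coq9 in R-Scm 24 h was 0.000437 and 0.000227 with DESeq2. Leaving out 1 library moved the log2FC of Rcm against Scm from -0.342 to 0.0163 for Dhodh, -0.11 to 0.074 for Pdss1, -0.117 to 0.113 for Pdss2, -0.128 to 0.0468 for Coq2, -0.289 to 0.0111 for Coq7 and -0.101 to 0.0154 for Coq9. In R-Scm 12 h it gave -0.0723 to 0.0933 for Coq2, -0.127 to 0.185 for Coq7 and -0.0296 to 0.119 for Coq9. In R-Scm 24 h it gave -0.109 to 0.158 for Pdss1, -0.113 to 0.117 for Pdss2, -0.0625 to 0.109 for Coq2, -0.236 to 0.0601 for Coq7 and -0.0818 to 0.043 for Coq9, and in S-Rcm 24 h -0.0519 to 0.0753 for Coq9. Fewer samples raise the error of each such value. The cause of the other changes was not tested.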

Other observations

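The genes most like Aifm2 over the 18 libraries, looked up after its values were seen, were Pttg1 (Pearson r 0.907), Btbd2 (0.907) and Dhrs3 (0.902). After group means were removed the correlations were 0.799, 0.85 and 0.614.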
